A study of Gossypium hirsutum with 9 samples.

Results

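Allene oxide synthase (AOS) is represented here by 2 probes, 28K_069_H08 and 28K_156_D09, of the 29183 different probes on a dual-dye cotton cDNA microarray. They were chosen by name, as the probes that the study assigns to this enzyme. RNA from mixtures of ovules and fibers of Upland cotton (Gossypium hirsutum) was compared between the lintless-fuzzless mutant XinWX, whose seeds bear neither lint nor fuzz, and the linted-fuzzless mutant XinFLM, whose seeds bear lint but no fuzz, at -1, 0 and 1 days post anthesis (DPA). The study describes them as isogenic lines, so the contrast rests on 1 pair of lines, and what both share, the absence of fuzz, cannot be seen in it. Each of the 9 arrays carried XinWX and XinFLM RNA of the same stage, with 3 arrays per stage. On replicates 1 and 3 the XinWX RNA carried Cy3 and the XinFLM RNA Cy5, and on replicate 2 the dyes were interchanged.

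AOS converts the fatty acid hydroperoxide made by lipoxygenase (LOX) into an unstable allene oxide. Allene oxide cyclase closes this into 12-oxo-phytodienoic acid, 12-oxophytodienoate reductase 3 (OPR3) reduces the product, and shortening of its side chain yields jasmonic acid (JA). GH3 enzymes then join JA or other hormones to amino acids. In plants JA is best known for responses to wounding and for flower development, and lint fibers arise from single epidermal cells of the ovule around the day of anthesis.

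No array probe sequence was used here. The RT-qPCR primers are shown because they are the sequences that the study lists under the names of the 2 probes. The primers were not matched to a probe or transcript here. They are given 5′ to 3′ in lower case, with nothing marked.
28K_069_H08 forward: ctacaccgttcattagca
28K_069_H08 reverse: tacaccaccgatttcatc
28K_156_D09 forward: attcacatcacctttcctaa
28K_156_D09 reverse: gcttgtaattggctcaac
The longest stretch shared by a primer of one probe and a primer of the other, on either strand, was 4 bases, in 4 pairs compared. Whether the probes stand for 2 genes, for 2 copies of one gene in this polyploid genome or for 2 parts of one transcript is not given in the sources used here, and a cDNA probe can also bind transcripts of close relatives.

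The median background-subtracted signal of a channel ranged from 694 to 1664 units over the 9 arrays. Replicate 3 of 1 DPA held both extremes, 1664 units in its XinWX channel and 694 units in its XinFLM channel. Log ratios of all probes correlated more closely between replicates 1 and 2 (r = 0.891, 0.821 and 0.796 at -1, 0 and 1 DPA) than between replicates 1 and 3 (r = 0.647, 0.511 and 0.601). The labels number 3 replicates, whereas the methods speak of 2 biological replicates plus a dye swap, so the p-values below may measure technical spread in part. The labeled tissue was not checked against marker genes, since only the probes that the study names were paired with genes here. In whole ovules, fewer cells of a type and less RNA per cell cannot be told apart.

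Both AOS probes were bright on every array. The signals of 28K_069_H08 lay between 2581 and 9861.5 units, and those of 28K_156_D09 between 1868.5 and 13523 units, all above the limit of 400 units used for faint spots. No spot was saturated. The spots lie apart on the slide, in block 36 (row 7, column 3) for 28K_069_H08 and in block 26 (row 14, column 2) for 28K_156_D09.

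At -1 DPA both AOS probes were lower in XinWX than in XinFLM on all 3 arrays. The signals of 28K_069_H08 were 4669, 3552 and 3189 units in XinWX on replicates 1, 2 and 3, against 9861.5, 6703 and 9362 units in XinFLM. The lines did not overlap for this probe. The signals of 28K_156_D09 were 6857.5, 8007 and 1868.5 units in XinWX, against 12689, 13523 and 7155.5 units in XinFLM. For this probe the lines overlapped across arrays, with replicate 3 dimmer than the others in both channels, but XinWX was the lower channel within each spot.

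**Figure D1:**
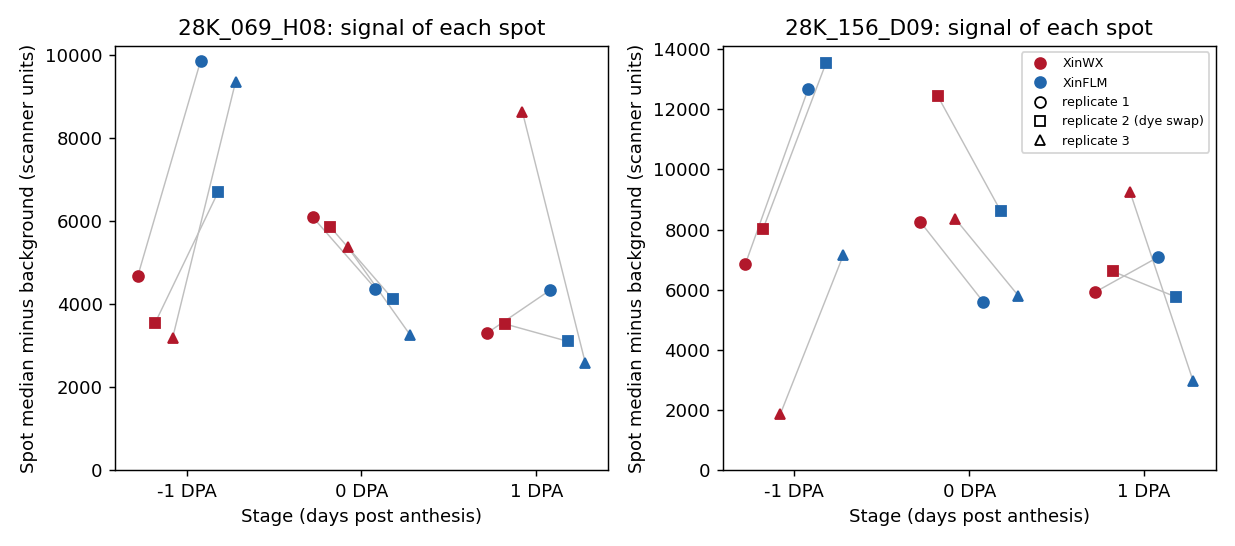
Background-subtracted signal (vertical axis, scanner units, from 0) of the 28K_069_H08 spot (left panel) and the 28K_156_D09 spot (right panel) on each of 9 arrays, by stage in days post anthesis. Red points are XinWX, blue points XinFLM, symbols are replicates, and a grey line joins the channels of one spot. The lines slope up toward XinFLM on all 3 arrays of -1 DPA and down on all 3 arrays of 0 DPA, while at 1 DPA replicate 1 slopes up and replicates 2 and 3 slope down.

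After normalization the log2 ratio of XinWX over XinFLM for 28K_069_H08 at -1 DPA was -1.07, -1.05 and -1.45 on the 3 arrays. The mean was -1.19 ± 0.22 (SD, n = 3), or 2.28-fold lower in XinWX (95% interval -1.56 to -0.81 on the log2 scale, adjusted p = 0.000284 in limma). At this stage the study's text describes the opposite direction for its RT-qPCR of these genes. It reports them as higher in XinWX from -1 to 1 DPA, most of all at -1 DPA, which is the array direction at 0 DPA. Those measurements were not analysed here. For 28K_156_D09 the log2 ratio was -0.86, -0.91 and -1.83, with a mean of -1.20 ± 0.55 (SD, n = 3), or 2.30-fold lower in XinWX (95% interval -1.61 to -0.79, adjusted p = 0.000485 in limma). Replicate 3 stood below the others for both probes, and by more for 28K_156_D09. Without -1 DPA replicate 3 the ratio of 28K_156_D09 was -0.88 (adjusted p = 0.00478), which is under the 2-fold limit.

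Calls required at least a 2-fold difference together with a false discovery rate (FDR) below 0.05. Both AOS probes were thus called lower in XinWX at -1 DPA, where 1.24% of the 23170 probes tested were called in that direction. The study chose these probes as differentially expressed on the same arrays, so the count of 2 is not independent evidence of a difference. Among all probes tested, 150 (0.647%) had a ratio at least as low as that of 28K_069_H08, and 143 (0.617%) one at least as low as that of 28K_156_D09. The ratios of the other probes printed in the same blocks were centred near 0 at -1 DPA, with block medians of 0.02 to 0.05 around 28K_069_H08 and of -0.02 to 0.01 around 28K_156_D09. They lay further from 0 around 28K_069_H08 at the later stages, from 0.01 to 0.19 at 0 DPA and from -0.12 to 0.28 at 1 DPA. Around 28K_156_D09 they ran from -0.07 to 0.03 at 0 DPA and from -0.10 to 0.13 at 1 DPA. With loess within each print block the ratio of 28K_069_H08 was -1.22, 0.55 and 0.08 at -1, 0 and 1 DPA.

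At 0 DPA, the day of anthesis, the order of the lines was turned round. The signals of 28K_069_H08 were 6105.5, 5869.5 and 5389 units in XinWX, against 4375.5, 4122 and 3249 units in XinFLM. XinWX was the brighter channel on every array, again without overlap between the lines. The signals of 28K_156_D09 were 8257.5, 12438 and 8358.5 units in XinWX, against 5599, 8614.5 and 5807.5 units in XinFLM. Here too XinWX was brighter within each spot, while replicate 2 was brighter in both channels than the other arrays and the lines overlapped across arrays.

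The log2 ratios of 28K_069_H08 at 0 DPA were 0.58, 0.52 and 0.76, with a mean of 0.62 ± 0.12 (SD, n = 3), or 1.54-fold higher in XinWX (95% interval 0.25 to 1.00). This ratio passed the FDR (adjusted p = 0.0444 in limma) but not the 2-fold limit, and its adjusted p was 0.0538 once a replicate block was added and 0.188 with replicates 1 and 2 averaged as 1 sample. The log2 ratios of 28K_156_D09 were 0.68, 0.53 and 0.61, with a mean of 0.61 ± 0.07 (SD, n = 3), or 1.52-fold higher in XinWX (95% interval 0.20 to 1.01). It did not pass the FDR (adjusted p = 0.0712 in limma). Among all probes tested at 0 DPA, 3.50% passed the FDR with higher signal in XinWX and 0.446% were also past 2-fold. Both AOS intervals lay above 0, and neither probe was called.

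At 1 DPA the arrays did not point one way. The signals of 28K_069_H08 were 3311, 3526 and 8637 units in XinWX, against 4345, 3105 and 2581 units in XinFLM. The signals of 28K_156_D09 were 5923, 6612 and 9241 units in XinWX, against 7085.5, 5764 and 2967.5 units in XinFLM. XinWX was dimmer than XinFLM on replicate 1, slightly brighter on replicate 2 and much brighter on replicate 3, the array with the uneven channels. Before normalization the log2 ratios of that array were 1.74 for 28K_069_H08 and 1.64 for 28K_156_D09, and after it 0.83 and 0.76.

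The normalized log2 ratios of 28K_069_H08 at 1 DPA were -0.31, 0.10 and 0.83, with a mean of 0.20 ± 0.58 (SD, n = 3, 95% interval -0.17 to 0.58, adjusted p = 0.427 in limma). Those of 28K_156_D09 were -0.12, 0.15 and 0.76, with a mean of 0.26 ± 0.45 (SD, n = 3, 95% interval -0.14 to 0.67, adjusted p = 0.34 in limma). Neither probe passed the FDR at 1 DPA, where 5357 of 22077 probes did in either direction and 3.96% were also past 2-fold. The spread over the 3 arrays was larger than either mean. Without 1 DPA replicate 3 the means were -0.11 for 28K_069_H08 and 0.02 for 28K_156_D09.

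**Figure D2:**
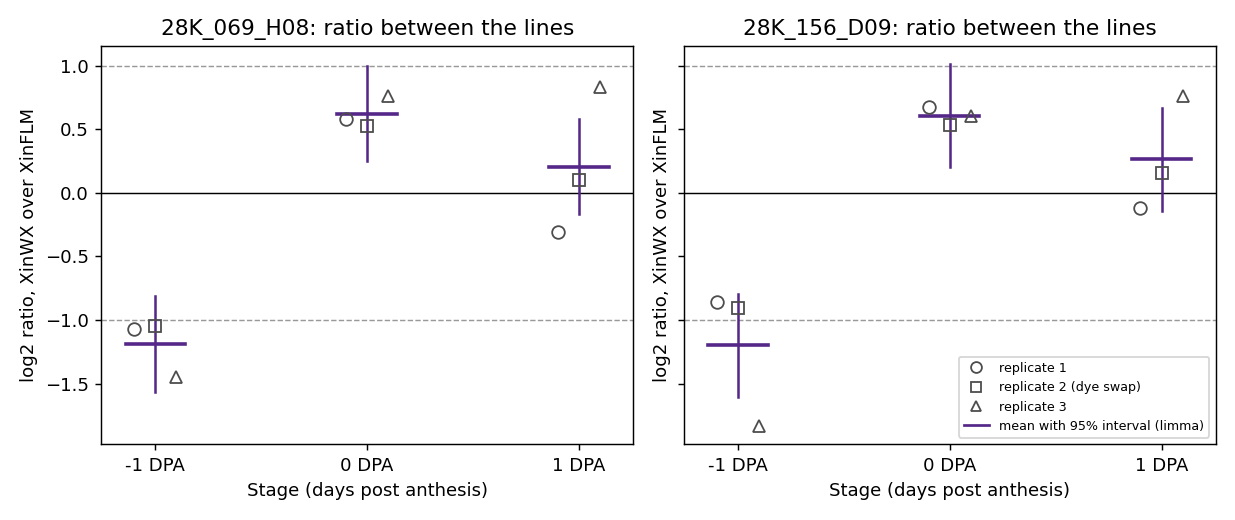
Log2 ratio of XinWX over XinFLM (vertical axis) of each AOS probe by stage in days post anthesis. Open symbols are the 3 arrays of a stage, the horizontal bar is their mean, the vertical bar its 95% interval from limma, and dashed lines mark a 2-fold difference in either direction. The means are -1.19 and -1.20 at -1 DPA, 0.62 and 0.61 at 0 DPA and 0.20 and 0.26 at 1 DPA for 28K_069_H08 and 28K_156_D09 in that order.

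The change of the ratio between stages was tested as a difference of coefficients in the same fit. Between -1 and 0 DPA the log2 ratio of XinWX over XinFLM rose by 1.81 for 28K_069_H08 (standard error 0.25, 95% interval 1.28 to 2.34, adjusted p = 0.000707 in limma) and by 1.81 for 28K_156_D09 (standard error 0.27, 95% interval 1.23 to 2.38, adjusted p = 0.00127). On a linear scale the ratio rose 3.50-fold for each probe. A rise of this ratio passed the FDR for 2.59% of the 22227 probes tested. It was common among probes that began low. Of the 268 probes called lower in XinWX at -1 DPA and also tested at 0 DPA, 146 had such a rise, the AOS probes included. A rise at least as large as that of 28K_069_H08 was found for 16 probes (0.0720%). For 28K_156_D09 the number was 18 (0.0810%), each count with the probe itself included. Since the study chose both probes on the same arrays, these ranks are not independent evidence either.

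Between 0 and 1 DPA the ratio changed by -0.42 for 28K_069_H08 (95% interval -0.95 to 0.11, adjusted p = 0.345 in limma) and by -0.34 for 28K_156_D09 (95% interval -0.92 to 0.23, adjusted p = 0.487). Neither passed, where 8.22% of the probes tested did. Without 1 DPA replicate 3 the change was -0.73 for 28K_069_H08 and passed the FDR (adjusted p = 0.0322), and it was -0.59 for 28K_156_D09 (adjusted p = 0.182). From -1 to 1 DPA the ratio rose by 1.39 for 28K_069_H08 (adjusted p = 0.0022 in limma) and by 1.46 for 28K_156_D09 (adjusted p = 0.00274). A rise over this interval passed the FDR for 4.66% of probes.

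Few of the probes that were lower in XinWX at -1 DPA stood above 0 a day later. Of the 268 probes called lower in XinWX at -1 DPA and also tested at 0 DPA, 38 (14.2%) had a ratio above 0 at 0 DPA, and both AOS probes were among them. At 0 DPA 6 of the 268 passed the FDR as higher in XinWX, 28K_069_H08 being one, and 82 passed it as lower in XinWX. These counts hold the AOS probes themselves and both stages were measured on separate arrays.

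**Figure D3:**
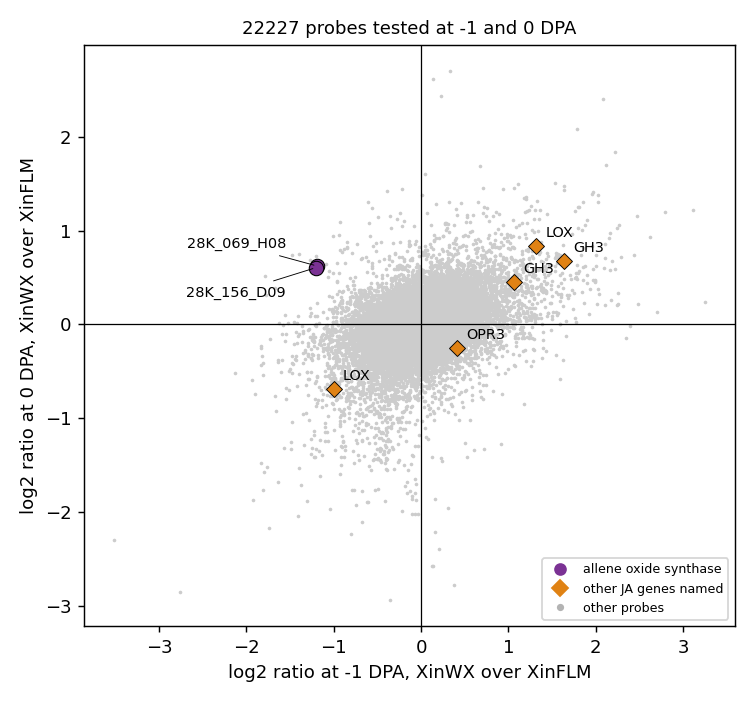
Log2 ratio of XinWX over XinFLM at -1 DPA (horizontal axis) and at 0 DPA (vertical axis) for the 22227 probes tested at both stages. Purple circles are the AOS probes, orange diamonds the 5 other JA probes and grey points all others. The AOS probes lie almost on top of each other in the upper left quadrant, at -1.19 and 0.62 for 28K_069_H08 and -1.20 and 0.61 for 28K_156_D09, and none of the 5 diamonds lies in that quadrant.

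To see which line changed, the channels were analysed separately as normalized log2 intensity. In XinWX the level of 28K_069_H08 was 11.85, 11.39 and 11.90 at -1 DPA, 12.44, 12.48 and 12.50 at 0 DPA and 12.14, 12.27 and 12.58 at 1 DPA. In XinFLM it was 12.92, 12.43 and 13.35 at -1 DPA, 11.86, 11.96 and 11.74 at 0 DPA and 12.45, 12.17 and 11.75 at 1 DPA. The XinWX levels at 0 DPA were all above those at -1 DPA, and the XinFLM levels at 0 DPA were all below those at -1 DPA.

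In XinWX the level of 28K_156_D09 was 12.43, 12.52 and 11.15 at -1 DPA, 12.88, 13.55 and 13.15 at 0 DPA and 13.01, 13.26 and 12.67 at 1 DPA. In XinFLM it was 13.29, 13.43 and 12.98 at -1 DPA, 12.20, 13.01 and 12.55 at 0 DPA and 13.14, 13.11 and 11.91 at 1 DPA. XinWX at 0 DPA again lay wholly above XinWX at -1 DPA, whereas in XinFLM 1 array of 0 DPA, replicate 2, lay within the range of -1 DPA.

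The mean levels of the 6 combinations of line and stage fell in the same order for both probes. XinFLM at -1 DPA was highest, followed by XinWX at 0 DPA, XinWX at 1 DPA, XinFLM at 1 DPA, XinFLM at 0 DPA and XinWX at -1 DPA. For 28K_069_H08 the means ran from 12.90 ± 0.46 down to 11.72 ± 0.28, and for 28K_156_D09 from 13.23 ± 0.23 down to 12.03 ± 0.77 (SD, n = 3). No neighbours in this order were further apart than the larger of their SDs.

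No change within a line passed the FDR for either AOS probe. From -1 to 0 DPA the level of 28K_069_H08 differed by 0.76 in XinWX (95% interval 0.06 to 1.46, unadjusted p = 0.0356, adjusted p = 0.47 in limma) and by -1.05 in XinFLM (95% interval -1.75 to -0.35, unadjusted p = 0.00561, adjusted p = 0.207). The level of 28K_156_D09 differed by 1.16 in XinWX (95% interval 0.31 to 2.02, unadjusted p = 0.0104, adjusted p = 0.296) and by -0.64 in XinFLM (95% interval -1.50 to 0.21, unadjusted p = 0.132, adjusted p = 0.717). The share of all probes called over the same interval was 0.436% in XinWX and 0.724% in XinFLM, with 97 and 161 probes. These shares rest on single arrays. Leaving out 1 DPA replicate 3 gave the highest counts, 361 in XinWX and 373 in XinFLM. The lowest were 0 in XinWX, with 0 DPA replicate 2 left out, and 7 in XinFLM, with -1 DPA replicate 1 left out. The standard errors of these changes within a line were 0.34 and 0.41, against 0.25 and 0.27 for the change of the ratio.

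The XinFLM change of 28K_069_H08 was near the threshold. It passed with the arrays of -1 and 0 DPA alone in the fit (-1.05, adjusted p = 0.0314) and without 1 DPA replicate 3 (-1.05, adjusted p = 0.0372). From 0 to 1 DPA the differences were -0.15 and -0.21 in XinWX and 0.27 and 0.13 in XinFLM for 28K_069_H08 and 28K_156_D09, with adjusted p between 0.696 and 0.891, and 0.266% of all probes were called in XinWX and 2.91% in XinFLM. From -1 to 1 DPA they were 0.61 and 0.95 in XinWX and -0.78 and -0.51 in XinFLM, with adjusted p between 0.138 and 0.449, where 2.20% of all probes were called in XinWX and 10.3% in XinFLM. The shares for both intervals also moved by over 1.5 times with single arrays.

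Single arrays and the normalization moved the AOS differences over the whole interval too. Without 1 DPA replicate 3 the XinFLM difference of 28K_156_D09 from -1 to 1 DPA was -0.11. Without -1 DPA replicate 3 its XinWX difference was 0.51. With no normalization between arrays the XinWX difference of 28K_069_H08 was 0.18. None of these passed the FDR in any alternative.

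**Figure D4:**
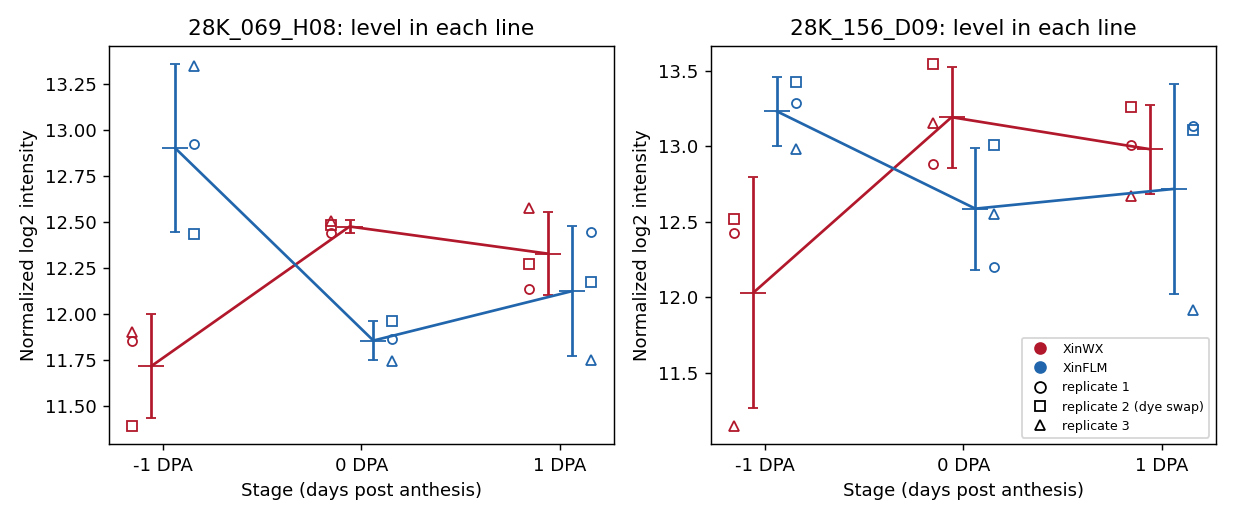
Normalized log2 intensity (vertical axis, a separate scale in each panel) of each AOS probe by stage in days post anthesis. Open symbols are single arrays, horizontal ticks are means and bars are SD over 3 arrays, with XinWX in red and XinFLM in blue. From -1 to 0 DPA the XinWX mean moves by 0.76 and 1.16 and the XinFLM mean by -1.05 and -0.64 for 28K_069_H08 and 28K_156_D09, so that the lines cross in both panels.

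The 2 AOS probes tracked each other closely in the ratio between the lines and less so in level. Over the 9 arrays their log2 ratios had a Pearson r of 0.977, a description over points that share arrays and a stage pattern. Among the 18149 other probes kept on all arrays, 28K_156_D09 was the second most like 28K_069_H08, and 28K_069_H08 ranked 7 for 28K_156_D09. On 8 of 9 arrays their ratios lay within 0.25 of each other, and the exception was -1 DPA replicate 3, with a gap of 0.39. Over the 18 normalized levels of a line on an array their r was 0.548, with ranks of 130 and 591 among 20872 probes.

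By the 18 levels, the probes most like 28K_069_H08 were 28K_104_G02 (r = 0.815) and 28K_102_G02 (r = 0.774), and those most like 28K_156_D09 were 28K_214_B08 (r = 0.893) and 28K_256_F03 (r = 0.875). None of these carries a gene name here. At -1 DPA their log2 ratios of XinWX over XinFLM were -1.28 ± 0.71, -1.13 ± 0.03, -1.01 ± 0.90 and -0.56 ± 0.61 in the same order, and at 0 DPA 0.17 ± 0.27, -0.16 ± 0.15, 0.12 ± 0.28 and 0.18 ± 0.11 (SD, n = 3). The AOS ratios at 0 DPA, 0.62 and 0.61, lay above all of them.

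A list of 5 other JA probes held LOX, OPR3 and GH3 but not allene oxide cyclase, the step right after AOS, whose probes were not analysed here. At -1 DPA 3 of 5 were called higher in XinWX, where 2.08% of all probes were. These were LOX 28K_150_B07, named for the step just before AOS (log2 ratio 1.32 ± 0.27, adjusted p = 0.000412 in limma), and the GH3 probes 28K_086_B03 (1.64 ± 0.15, adjusted p = 3.88e-06) and 28K_236_A10 (1.06 ± 0.09, adjusted p = 0.000758). Which type of lipoxygenase the LOX probes stand for was not examined here. The second LOX probe, 28K_275_B02, was called lower in XinWX, as AOS was (-1.00 ± 0.66, adjusted p = 0.00174), and lay on the 2-fold limit. OPR3 28K_299_E12, named for a step after AOS, had a ratio of 0.41 ± 0.33 and did not pass (adjusted p = 0.133). The median over the 5 was 1.06, and over all probes tested it was -0.00433.

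At 0 DPA none of the 5 was called. LOX 28K_150_B07 (0.84 ± 0.29, adjusted p = 0.0219 in limma) and GH3 28K_086_B03 (0.68 ± 0.14, adjusted p = 0.00834) passed the FDR as higher in XinWX, and LOX 28K_275_B02 as lower (-0.69 ± 0.15, adjusted p = 0.0382), where 3.50% and 4.18% of all probes did. At 1 DPA 2 of 5 were called, both higher in XinWX, where 1.78% of all probes were. GH3 28K_086_B03 had a ratio of 1.39 ± 0.36 (adjusted p = 7.97e-06), and OPR3 28K_299_E12 was at least 1.48-fold higher in XinWX (adjusted p = 0.00139). This bound is under the 2-fold limit, so the call of OPR3 rests on faint XinFLM signals. The GH3 probe 28K_236_A10 (at least 1.51-fold, adjusted p = 0.00276) and LOX 28K_275_B02 (0.61 ± 0.20, adjusted p = 0.0291) passed the FDR alone, both higher in XinWX. This LOX probe had been lower in XinWX at -1 and 0 DPA. Without the 2-fold limit, 5357 of the 22077 probes tested at 1 DPA passed the FDR in either direction. The values of OPR3 and 28K_236_A10 are lower bounds, since their XinFLM signals were under 400 units on all 3 arrays, and the bounds were taken against the lowest normalized level among probes of at least 400 units.

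Between -1 and 0 DPA, where both AOS ratios rose, none of the 5 other JA probes analysed showed a rise that passed the FDR. The ratio of GH3 28K_086_B03 fell by 0.96 (adjusted p = 0.0104 in limma), where 4.09% of all probes passed in that direction. LOX 28K_275_B02, which had shared the direction of AOS at -1 DPA, changed by 0.31 (adjusted p = 0.544), and the median change over the 5 was -0.61, against -0.01 over all probes tested. The ratio of this LOX probe rose a day later, by 1.31 from 0 to 1 DPA (adjusted p = 0.00797 in limma). Over that interval 3 of 5 passed the FDR with a rise, where 8.22% of all probes passed in either direction. The others were GH3 28K_086_B03 (0.71, adjusted p = 0.0427) and OPR3 28K_299_E12 (adjusted p = 0.00944), whose XinFLM signals at 1 DPA were under 400 units. From -1 to 1 DPA the ratio of LOX 28K_275_B02 rose by 1.61 (adjusted p = 0.00121), beside 1.39 and 1.46 for the AOS probes. It was the only rise among the 5 that passed the FDR over the whole interval. The ratio of the other LOX probe, 28K_150_B07, went the opposite way, with a change of -0.96 (adjusted p = 0.047 in limma). From -1 to 1 DPA 2263 of the 21229 probes tested passed the FDR in either direction. The XinFLM signals of 28K_150_B07 at 1 DPA were under 400 units on all 3 arrays. As with AOS, the list was chosen by the study on the same arrays, and its counts are not independent evidence.

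**Figure D5:**
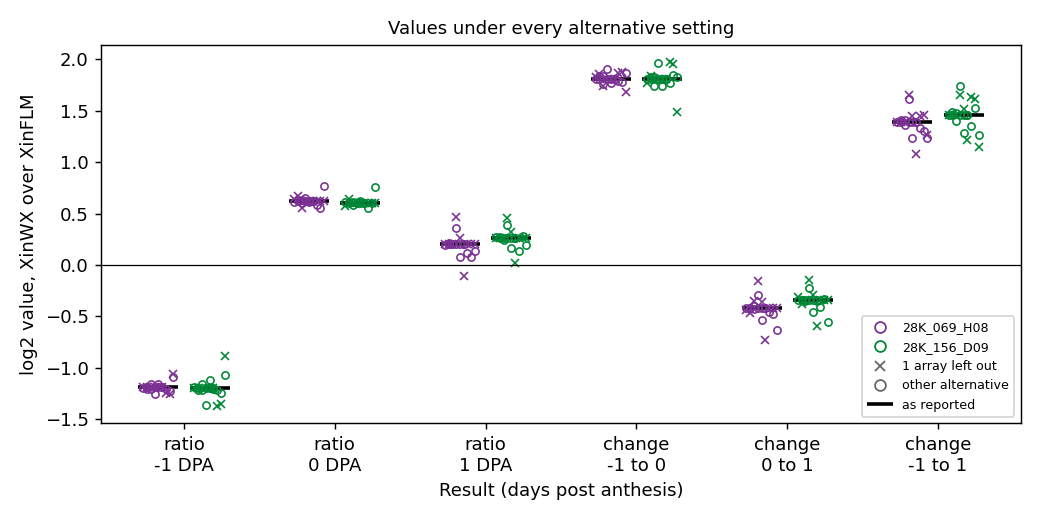
Values of the 3 ratios and 3 changes of the ratio (vertical axis, log2, XinWX over XinFLM) of both AOS probes under 23 alternative settings each. Purple symbols are 28K_069_H08, green symbols 28K_156_D09, crosses leave out 1 array, circles are other settings and black bars the reported values. The rise between -1 and 0 DPA spans 1.68 to 1.91 for 28K_069_H08 and 1.49 to 1.98 for 28K_156_D09, whereas the ratio of 28K_069_H08 at 1 DPA lies on both sides of 0.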

How the data were processed

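The authors scanned the dual-dye arrays and deposited spot intensities with local background for both channels, together with a table of normalized log2 ratios of Cy5 over Cy3, made with limma 3.4.5 in R 2.12.2 per the labels. Here median intensities were used, and the deposited log2 ratios served as an alternative. Background was corrected with normexp (offset 50). Spots under 400 units in both channels were removed as faint, loess (span 0.3, 4 iterations) was applied within arrays, and ratios were turned to XinWX over XinFLM by the labeled dyes. A probe was tested at a stage if kept on at least 2 of 3 arrays. Ratios of all 9 arrays were fitted in limma 3.58.1 (R 4.3.3), with 1 coefficient per stage and Benjamini-Hochberg adjustment over all probes tested. Changes of the ratio were judged by the FDR alone. Changes within a line used Aquantile normalization and limma's separate-channel fit (22781 probes, intraspot correlation 0.781), in which the values of faint spots stayed.

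The methods were tested on simulated data drawn as independent arrays. Such data cannot show how the p-values behave if arrays of a stage share a biological sample. The members, the 5 other JA probes and the tests were chosen with earlier results of these data known. The text names these 7 probes and, for each AOS probe, the 2 probes with the highest Pearson r over the 18 normalized levels. Alternatives covered background, faint spots, scanner flags, normalization, a dye term, the replicate block, averaging of the dye swap with replicate 1 or 3, the arrays in the fit and the deposited ratios. Deviations of the log2 ratio on same-numbered arrays from their stage means correlated between -1 and 0 DPA (r = 0.141, 0.261 and 0.129 for replicates 1, 2 and 3). Between -1 and 1 DPA r was lower, at 0.0305, 0.0638 and 0.0874. Between 0 and 1 DPA it was -0.0344, -0.0666 and 0.0489. For the levels within a line, r between -1 and 0 DPA was 0.0927, 0.195 and 0.391 in XinWX and 0.113, 0.144 and 0.36 in XinFLM. The labels give no reason for a pairing, apart from the dye orientation, which same-numbered arrays share. The number of arrays limits the precision.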

Additional observations from a re-analysis of the deposited data

Results flagged for a closer look

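The difference between XinWX and XinFLM itself differed between stages for both AOS probes, by a test of the change of the ratio in limma. From -1 to 0 DPA the log2 ratio of XinWX over XinFLM changed by 1.81 for 28K_069_H08 (adjusted p = 0.000707) and by 1.81 for 28K_156_D09 (adjusted p = 0.00127), and the ratio was below 0 on 3 of 3 arrays at -1 DPA and above 0 on 3 of 3 arrays at 0 DPA for each. From -1 to 1 DPA it changed by 1.39 for 28K_069_H08 (adjusted p = 0.0022) and by 1.46 for 28K_156_D09 (adjusted p = 0.00274), with 2 of 3 arrays above 0 at 1 DPA.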

How the results depend on the processing

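Over 23 alternatives, 28K_069_H08 was called lower in XinWX at -1 DPA in 23, and 28K_156_D09 in 22 and past the FDR in 23. Its ratio ranged from -1.37 to -0.88 with 1 array left out. The rise of the ratio from -1 to 0 DPA and from -1 to 1 DPA passed in 23 of 23 for both probes, with the highest adjusted p, 0.022 and 0.0341 and then 0.0297 and 0.037, for 28K_069_H08 and 28K_156_D09 in that order. At 0 DPA the ratio was above 0 in 23 of 23 for both and passed the FDR in 10 for 28K_069_H08 and in 6 for 28K_156_D09, without reaching 2-fold. With 1 array left out, the ratio of 28K_069_H08 at 1 DPA ranged from -0.11 to 0.46, its change from 0 to 1 DPA from -0.73 to -0.16 and its XinFLM change from -1 to 0 DPA from -1.28 to -0.83, where 1 DPA replicate 3 decided the sign of the first and the calls of the others. The XinFLM change also passed with the arrays of both stages alone (-1.05). The XinFLM change from 0 to 1 DPA turned negative with no normalization between arrays (-0.054 for 28K_069_H08 and -0.22 for 28K_156_D09), and for 28K_156_D09 with replicates 1 and 2 averaged (-0.061) and over a range of -0.078 to 0.53 with 1 array left out. The cause was not tested. As a replicate block, the replicate number left the AOS ratios at -1.19 and -1.20 at -1 DPA and changed no AOS call, while 28K_069_H08 at 0 DPA no longer passed the FDR (adjusted p = 0.0538). It moved counts of all probes within a line, to 239, 395 and 884 in XinWX (97, 56 and 468 without it, for -1 to 0, 0 to 1 and -1 to 1 DPA) and to 281 and 1091 in XinFLM for the first 2 intervals (161 and 613 without it).

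With replicates 1 and 2 averaged, changes of the ratio numbered 307, 412 and 900 (1485, 1731 and 2263 otherwise), and within a line 0, 0 and 0 in XinWX and 3, 0 and 488 in XinFLM (2176 otherwise for the last). Keeping faint spots left 913 and 1088 changes of the ratio from -1 to 0 and 0 to 1 DPA. Without the 2-fold limit 5741, 1742 and 5357 probes passed at -1, 0 and 1 DPA, against 769, 335 and 875. With 1 array left out, changes of the ratio from -1 to 0 DPA numbered 671 to 2283, 0 to 1 DPA 796 to 2210 and -1 to 1 DPA 1456 to 2367. Counts within a line ran from 5 to 1982 (0 to 1 DPA) and 20 to 2100 (-1 to 1 DPA) in XinWX, and from 122 to 2107 and 1093 to 3299 in XinFLM. Of these 4 within-line ranges, each had its top without 1 DPA replicate 3, and the lowest counts were without 0 DPA replicate 2, -1 DPA replicate 1, 0 DPA replicate 1 and -1 DPA replicate 1 in that order.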
